A study of Mus musculus with 7 samples.

Results

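The genes described here are 10 members of the EGF family and its receptor system, taken by symbol from the 26607 genes listed for each library. They are 7 ligand genes (Areg, Ereg, Hbegf, Tgfa, Btc, Egf and Nrg1) and 3 receptor genes (Egfr, Erbb2 and Erbb3). All 10 were listed, and all 10 were above 0 in at least 1 library and so were among the 19144 genes tested. The RNA came from C2C12 cells, a mouse myoblast line that fuses into contractile myotubes when serum is lowered. The control group was 3 libraries of untreated myotubes, numbered 1, 3 and 4, and the EPS group was 4 libraries of myotubes treated by electrical pulse stimulation (EPS), numbered 1 to 4. The pulses were applied for a day to differentiated myotubes in plates and were followed by a short rest, to ask which genes answer to contraction without other organs. All cultures were 1 cell line without nerve, vessel or immune cells, and nothing in the labels or methods says that the libraries came from separate cultures, so the p-values measure only the spread between these samples, which may be technical.

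EGF family ligands are made as membrane-anchored precursors, are cut from the cell surface by ADAM proteases and bind receptor tyrosine kinases of the ERBB family. Amphiregulin, epiregulin, HB-EGF, TGF-alpha, betacellulin and EGF bind EGFR, and some of them also bind ERBB4, whereas neuregulins bind ERBB3 and ERBB4. ERBB2 has no known ligand and ERBB3 has little kinase activity of its own, so both signal as partners in dimers. In muscle, neuregulin signalling is known for its part at the neuromuscular junction and the muscle spindle, and amphiregulin is known as a growth factor of muscle repair.

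Depth was 16616917 to 22120641 reads per library, as recovered from the deposited CPM, the read counts scaled to each library's total. A level of 3 reads, taken as the floor, was 0.136 to 0.181 CPM. Floors and the intervals of read shares and of pooled read ratios cover counting error only. The intervals of log2 fold changes rest on the spread between libraries. Control replicate 4 stood apart from the others. With the most reads of all, it listed 14014 genes above 0 where the other libraries listed 16144 to 16984, and 359 genes at 1 to 5 reads where the others had 2670 to 3181. It is also the control library with 0 reads of both Areg and Tgfa, so results for weakly expressed members are given with and without it. The 7 myotube markers summed to 12301 to 17116 CPM in the control group and to 10786 to 13973 CPM in the EPS group, so markers of the labelled cell type were present in every library. Of these 7, 6 were on the lower side in the EPS group with none called, among them Myog (-1.07) and Ckm (-0.63), both highest in control replicate 4, and the part of this in the members' values was not tested. The p-values were from limma on log2(CPM + 1), and a gene was called where P before adjustment was under 0.01 and the change exceeded 2-fold. Fold changes on this scale understate the change of low genes.

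Across the 10 members, 1 was called, against 1.41% of all genes tested (269 of 19144). The call was Hbegf, which was lower in the EPS group, where 0.439% of all genes were called. None of the members was called higher, where 0.966% of all genes were, and by limma none had an adjusted p under 0.05 over all genes, although 2 (Hbegf and Areg) had P under 0.05 before adjustment, as did 11.6% of all genes tested. On the recovered reads the adjusted p was under 0.05 for Hbegf and Areg with DESeq2 and for Hbegf with both edgeR tests, and in limma it was under 0.05 for Hbegf with a pseudocount of 0.1 and among genes with a mean of at least 1 CPM. Of 16 alternatives to this fit, 9 gave another count of called members, 2 where Areg joined Hbegf and 0 where Hbegf fell short of 2-fold. Of the members, 6 were on the higher side in the EPS group and 4 on the lower side. Their median log2 fold change was 0.06, beside a median of 0.04 over all genes tested.

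**Figure D1:**
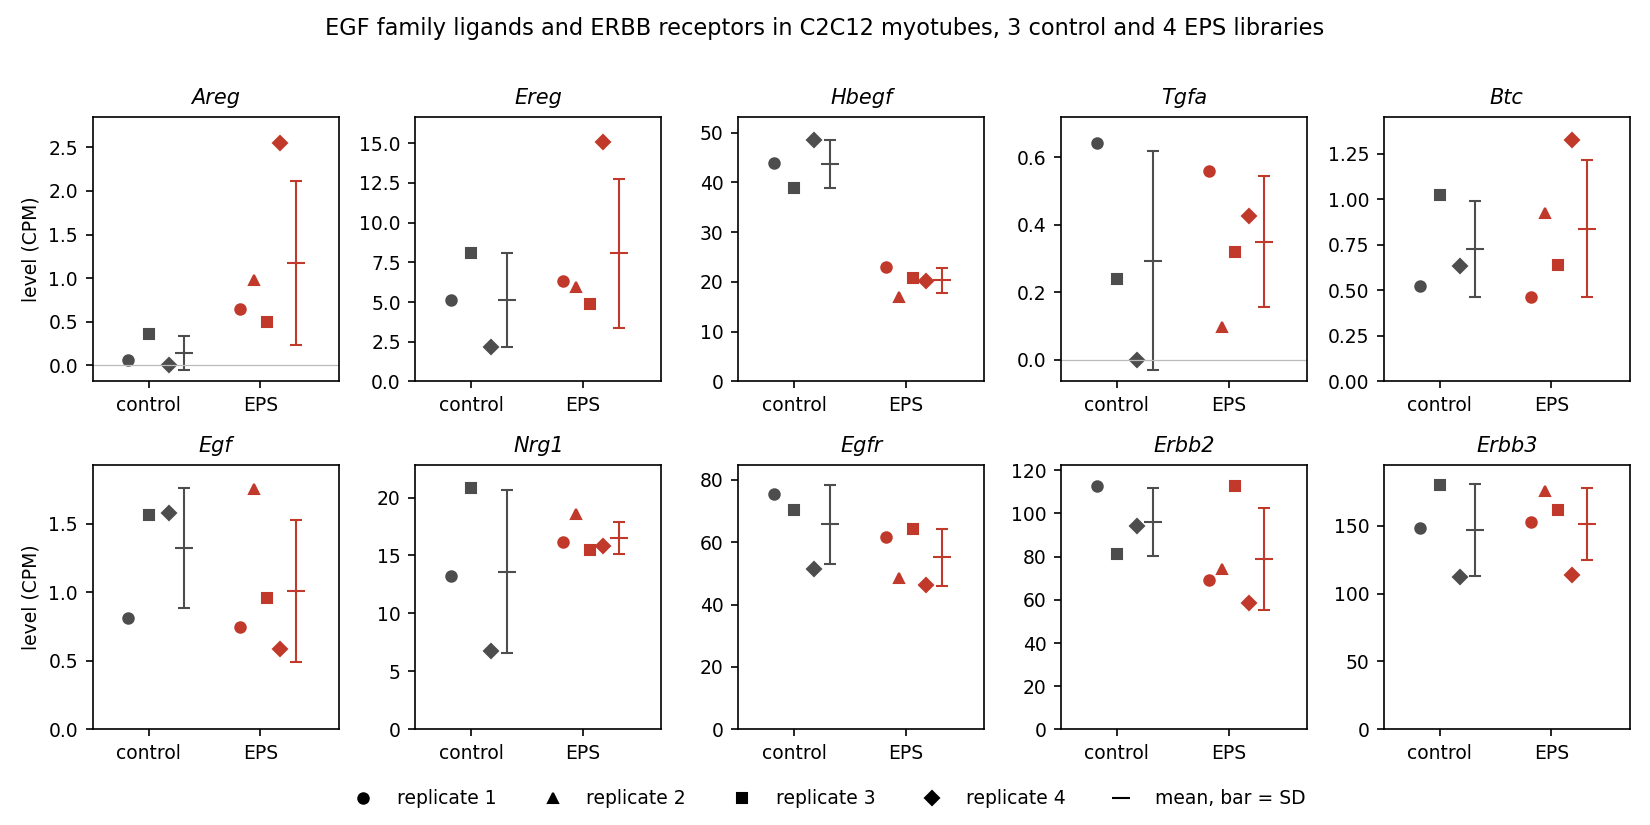
Level in CPM (vertical axis, a scale of its own in each panel) of the 10 members in 3 control and 4 EPS libraries, with a symbol for each replicate number and the mean and SD of each group beside the points. The 4 EPS libraries of Hbegf, at 17.0 to 23.1 CPM, sit below the 3 control libraries, at 38.9 to 48.6 CPM, and the groups of Areg are apart in the other direction.

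Hbegf encodes HB-EGF, the heparin-binding ligand of EGFR, and lies on chromosome 18 (GRCm38, 36504927 to 36515805). Control replicates 1, 3 and 4 were at 43.9, 38.9 and 48.6 CPM and EPS replicates 1 to 4 at 23.1, 17.0, 20.8 and 20.3 CPM. Every EPS library lay below every control library, and the gap between the groups was wider than the spread within either. Groups that do not overlap with the EPS group lower were found in 2.85% of all genes tested. Control libraries averaged 43.8 ± 4.84 CPM (SD, n = 3) and EPS libraries 20.3 ± 2.51 CPM (SD, n = 4). The level was 2.16-fold lower in the EPS group, with a log2 fold change of -1.07 (standard error 0.17, 95% interval -1.46 to -0.69, adjusted p = 0.069 from limma). Before adjustment limma gave P = 0.000145, and the exact permutation test on mean CPM, two-sided, gave p = 0.0571, the smallest value that the 35 splits of 3 against 4 libraries allow.

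The fall of Hbegf held its direction under all 16 alternatives, with log2 fold changes from -1.22 to -0.996. It passed both thresholds in 13 of them. In the remaining 3 (without control replicate 4, without EPS replicate 2, and with the replicate number as a block) the change was -0.996 to -0.998, just under 2-fold. Adjusted p-values ran from 1.16e-05 with DESeq2 on the recovered reads to 0.51 with the block.

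Areg encodes amphiregulin, an EGFR ligand with a heparin-binding stretch, and lies on chromosome 5 of GRCm38 from 91139599 to 91148432 with no other gene overlapping it. It was a weakly expressed gene. The 3 control libraries held 1, 6 and 0 reads, and the 4 EPS libraries held 14, 20, 11 and 48 reads. All EPS libraries were above all control libraries, and EPS replicate 4 held more reads than the other 3 EPS libraries together. In CPM, the control libraries were at 0.0583, 0.361 and 0, and the EPS libraries at 0.652, 0.974, 0.502 and 2.55. The means of 0.14 ± 0.194 CPM (SD, n = 3) and 1.17 ± 0.941 CPM (SD, n = 4) stood at a ratio of 8.37, built on 7 reads in the control group and 93 in the EPS group. That ratio was 5.08 without EPS replicate 4 and 5.58 without control replicate 4. Without control replicate 3, which held 6 of the 7 control reads, the ratio of pooled reads was 44.1 with a 95% counting interval of 7.73 to 1762, against 8.98 (4.19 to 22.9) with all libraries.

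On the log2(CPM + 1) scale the difference of Areg was 0.85 (standard error 0.27, 95% interval 0.23 to 1.48, adjusted p = 0.263 from limma), which passed neither threshold. Before adjustment limma gave P = 0.0128, and the exact permutation test gave p = 0.0571. Groups that do not overlap with the EPS group higher were found in 7.76% of all genes tested. The pseudocount of 1 is larger than every control value and 3 of the 4 EPS values, and on the recovered reads themselves the estimate was 3.02 with DESeq2 (adjusted p = 0.043), 2.99 with edgeR's quasi-likelihood test (adjusted p = 0.111) and 3.07 with the edgeR exact test (adjusted p = 0.0568). In these count fits Areg passed both thresholds. Without control replicate 4, the difference was 0.77 (adjusted p = 0.42 from limma), and over the 7 fits that leave out 1 library the adjusted p ran from 0.239 to 0.42.

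Ereg encodes epiregulin, another EGFR ligand, and is the gene next to Areg on chromosome 5, from 91074622 to 91093646. Its level was 5.13, 8.06 and 2.17 CPM in control replicates 1, 3 and 4, and 6.33, 5.94, 4.89 and 15.1 CPM in EPS replicates 1 to 4. The groups overlapped, with control replicate 4 the lowest of all and EPS replicate 4 the highest. The log2 fold change was 0.57 (95% interval -0.46 to 1.60, adjusted p = 0.681 from limma), a difference within the spread between replicates. It was 0.16 without control replicate 4, 0.26 without EPS replicate 4 and 0.92 without control replicate 3. An antisense gene, Gm19610, overlaps Ereg, and reads of both cannot be told apart because the strand setting of the counting is not stated.

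Areg and Ereg lie in a cluster of EGF family genes on chromosome 5, in the order Epgn, Ereg, Areg, Btc. The cluster spans 375.5 kb, with 39.41 kb between Epgn and Ereg, 45.95 kb between Ereg and Areg, and 208.8 kb between Areg and Btc. What makes these genes 1 family is the EGF motif, a stretch with 6 cysteines at fixed spacing that folds into the receptor-binding domain. The coding bases of this motif let the neighbours be compared and are given here from the reference transcripts of GENCODE M21 (transcripts Areg-201, Ereg-201, Btc-201 and Epgn-201), with the cysteine codons in capitals.
Areg: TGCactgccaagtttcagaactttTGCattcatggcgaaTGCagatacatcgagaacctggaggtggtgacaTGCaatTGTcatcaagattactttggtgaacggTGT
Ereg: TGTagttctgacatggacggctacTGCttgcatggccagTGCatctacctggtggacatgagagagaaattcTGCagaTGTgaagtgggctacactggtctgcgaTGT
Btc: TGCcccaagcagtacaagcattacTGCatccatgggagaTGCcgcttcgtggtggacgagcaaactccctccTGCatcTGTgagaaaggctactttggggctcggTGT
Epgn: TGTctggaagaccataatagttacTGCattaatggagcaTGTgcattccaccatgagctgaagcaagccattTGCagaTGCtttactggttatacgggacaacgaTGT
Each stretch is 36 codons (108 bases), from codon 139 to 174 in Areg, 61 to 96 in Ereg, 69 to 104 in Btc and 59 to 94 in Epgn. The 6 cysteine codons are spaced alike in all 4 genes, with 7, 4, 10, 1 and 8 codons between them. The stretches were found by searching for cysteine codons at or near this spacing, so the likeness was largely set by the search. Between the cysteines the sequences diverge. Over whole stretches, cysteine codons included, Areg was identical to Btc at 62 of 108 bases (57.4%), to Ereg at 53.7% and to Epgn at 50.9%. The lowest identity, 47.2%, was between Btc and Epgn.

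The 4 neighbours shared part of their pattern across the libraries, and differences between the genes were not tested. Areg, Ereg and Btc were highest in EPS replicate 4, whereas Epgn was highest in control replicate 3. Areg, Ereg and Epgn were lowest in control replicate 4, whereas Btc was lowest in EPS replicate 1. Btc and Epgn, at the ends of the cluster, had log2 fold changes of 0.08 (adjusted p = 0.869 from limma) and 0.05 (adjusted p = 0.907 from limma), beside those of Areg and Ereg above. Epgn encodes epigen, an EGFR ligand, and held 6, 10 and 0 reads in the control libraries and 5, 10, 6 and 7 reads in the EPS libraries, so its groups overlapped.

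The promoter of Areg is shown because Areg was the member whose EPS libraries all lay above the controls. The 250 bases before its RefSeq start (GRCm38.p6, chr5:91139349-91139598, plus strand) read as follows, with matches to the CRE (TGACGTCA, the letters bound by CREB-type factors) and to the TATA letters (TATAAA) in capitals.
Areg promoter: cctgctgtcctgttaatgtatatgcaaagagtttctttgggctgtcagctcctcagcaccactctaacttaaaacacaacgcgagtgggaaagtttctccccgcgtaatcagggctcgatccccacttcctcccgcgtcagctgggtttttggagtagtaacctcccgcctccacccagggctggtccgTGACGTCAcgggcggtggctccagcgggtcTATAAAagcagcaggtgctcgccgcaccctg
The CRE match lies 61 to 54 bases before the start and reads the same on both strands, and the TATA match lies 31 to 26 bases before it on the plus strand. Searched on both strands, the CRE letters were in 1.55% of 32851 promoters of the same length, the TATA letters in 12.4% and both in 0.119%. A promoter sequence was at hand for 6 of the 10 members, in 7 windows. Hbegf, Ereg, Nrg1 and Erbb3 had none at hand and were not searched. Of the 6 searched, Areg was the 1 member with a CRE or a TATA match. The letters GCGTG, the core bound by the AHR, were in the windows of Btc and Tgfa and in 28.2% of all promoters. No member window held the AP-1 letters TGANTCA (6.75% of all), the antioxidant response letters TGACNNNGC (10.2%) or the CArG box of SRF (1.47%). Letters in a window are a description and not a site.

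Tgfa, Btc and Egf encode further EGFR ligands and held few reads. Tgfa held 11, 4 and 0 reads in the control libraries and 12, 2, 7 and 8 reads in the EPS libraries. Btc, which encodes betacellulin, held 9, 17 and 14 reads in the control libraries and 10, 19, 14 and 25 reads in the EPS libraries. Egf, the founding gene of the family, on which 3 genes of the opposite strand lie, held 14, 26 and 35 reads in the control libraries and 16, 36, 21 and 11 reads in the EPS libraries. In all 3 genes the groups overlapped, and no library was high or low in all of them. The log2 fold changes were 0.08 for Tgfa (adjusted p = 0.869), 0.08 for Btc (adjusted p = 0.869) and -0.22 for Egf (adjusted p = 0.759), from limma. Their 95% intervals were -0.31 to 0.47, -0.32 to 0.48 and -0.72 to 0.28 on this compressed scale. Without control replicate 4 the sign of Tgfa turned, to -0.092, and the differences of Btc and Egf were 0.045 and -0.14.

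Nrg1 encodes neuregulin 1, the ligand of ERBB3 and ERBB4 that motor nerves and Schwann cells are known to use. It lies on chromosome 8 (GRCm38, 31814551 to 32884029). Control replicates 1, 3 and 4 were at 13.2, 20.8 and 6.78 CPM, and EPS replicates 1 to 4 at 16.2, 18.6, 15.5 and 15.8 CPM. The EPS libraries lay close together, all of them between control replicates 1 and 3, and control replicate 4 was the lowest. The log2 fold change was 0.38 (95% interval -0.36 to 1.12, adjusted p = 0.711 from limma), and -0.012 without control replicate 4. Schwann cell markers were near the floor, with Sox10 at 1 read in 1 library and 0 in the other 6, and the 3 markers of that list summed to 0.633 to 1.34 CPM in the control group and to 0.605 to 1.12 CPM in the EPS group.

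**Figure D2:**
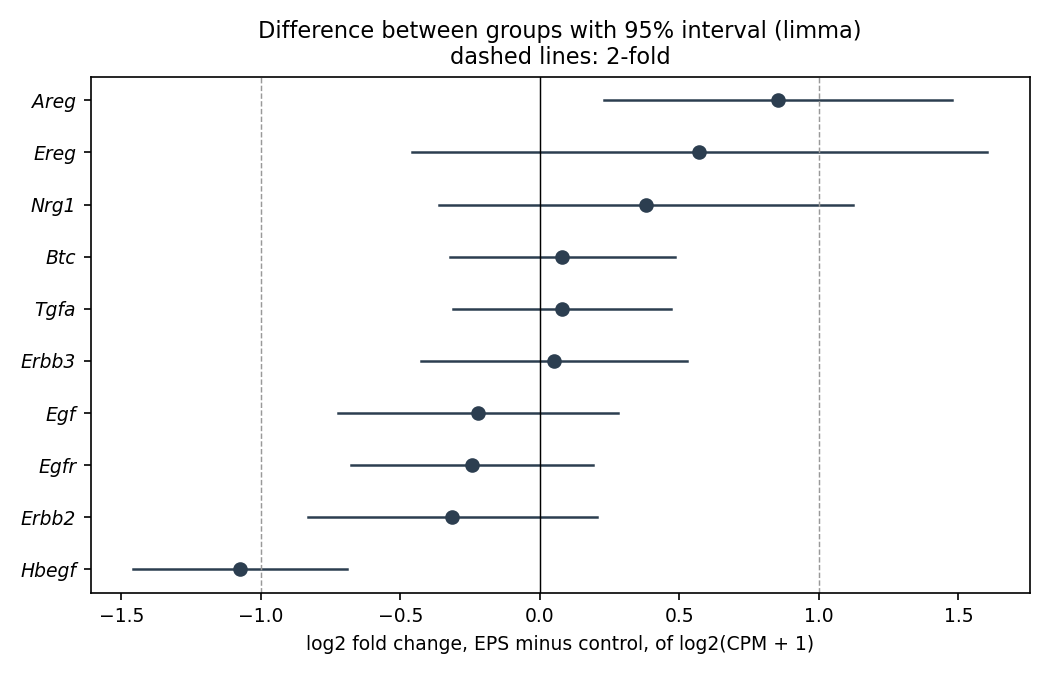
Difference between the groups for each member, as the log2 fold change of CPM + 1, EPS minus control (horizontal axis), with its 95% interval from limma and dashed lines at 2-fold. The intervals of Hbegf and Areg exclude 0, those of the other 8 members include it, and the estimate of Hbegf alone lies past 2-fold.

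The receptor genes were expressed in every library and none was called. Egfr, on chromosome 11 from 16752203 to 16918158, encodes the receptor of the first 6 ligands above and is overlapped by the antisense gene Egfros. Its level was 75.4, 70.3 and 51.3 CPM in control replicates 1, 3 and 4, and 61.7, 48.4, 64.1 and 46.3 CPM in EPS replicates 1 to 4. The groups overlapped, with EPS replicates 2 and 4 below the lowest control. The log2 fold change of -0.24 had a 95% interval of -0.68 to 0.19 (adjusted p = 0.672 from limma), and was -0.41 without control replicate 4 and -0.14 without control replicate 1.

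Erbb2, on chromosome 11 from 98412470 to 98437716, encodes the partner receptor without a ligand. It was at 113, 81.3 and 94.3 CPM in the control libraries and at 69.4, 74.2, 113 and 58.7 CPM in EPS replicates 1 to 4. Of the EPS libraries 3 lay below the lowest control, while EPS replicate 3 was level with the highest. The log2 fold change was -0.31 (95% interval -0.83 to 0.20, adjusted p = 0.648 from limma), -0.50 without EPS replicate 3 and -0.19 without EPS replicate 4. Mien1, on the opposite strand, overlaps Erbb2. Tgfa is overlapped by Gm43917 and Nrg1 by Gm26578 and Gm22140, all on the opposite strand, and Erbb3 by the miRNA gene Mir6917 on its own strand. As for Ereg, reads of genes that overlap Egf, Egfr, Erbb2, Tgfa, Nrg1 and Erbb3 cannot be told apart from theirs.

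Erbb3, on chromosome 10 from 128567523 to 128589652, encodes the receptor that binds neuregulin 1. Its level was 148, 180 and 112 CPM in the control libraries and 153, 176, 162 and 114 CPM in EPS replicates 1 to 4. The group ranges nearly coincided, with control replicate 4 and EPS replicate 4 the lowest of their groups. The log2 fold change was 0.05 (95% interval -0.43 to 0.53, adjusted p = 0.933 from limma), and its sign turned under 7 of 16 alternatives. Erbb4, the fourth receptor gene, held 0 reads in every library, as did the ligand gene Nrg3. Nrg2 held 1 read in 1 library and 0 in the other 6. Nrg4 held 12, 5 and 0 reads in the control libraries and 3, 6, 5 and 3 reads in the EPS libraries.

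Levels of different genes were compared as CPM per kilobase of exon (GENCODE M21). In the control group Erbb3 was highest, at 24.4 ± 5.60 CPM per kilobase (SD, n = 3), followed by Erbb2 at 18.5 ± 3.03, Hbegf at 9.06 ± 1.00 and Egfr at 5.80 ± 1.12. The ranges of Erbb3 and Erbb2 overlapped, although Erbb3 was the higher in each of the 3 libraries, whereas the ranges of Erbb2, Hbegf and Egfr were separate. Below them came Nrg1 and Ereg, at 1.32 ± 0.679 and 1.24 ± 0.714 CPM per kilobase, whose ranges overlapped. Btc, Egf, Areg and Tgfa were at 0.0453 to 0.161 CPM per kilobase, and each overlapped its neighbour in the order.

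In the EPS group the order of the means per kilobase changed at Hbegf, Areg, and the pair of Ereg and Nrg1. Erbb3 and Erbb2 were again the highest, at 25.1 ± 4.39 and 15.1 ± 4.52 CPM per kilobase (SD, n = 4). Egfr, at 4.87 ± 0.802 CPM per kilobase, came next and was above Hbegf, at 4.20 ± 0.520, in 3 of the 4 libraries, although their ranges overlapped. In the control group Hbegf had been above Egfr in all 3 libraries. Areg, at 0.962 ± 0.774 CPM per kilobase, was above Btc in all 4 EPS libraries with separate ranges, where in the control group it had been below Btc and Egf by its mean. Ereg, at 1.95 ± 1.14 CPM per kilobase, had a higher mean than Nrg1, at 1.60 ± 0.135, but was above it in 1 of the 4 EPS libraries. Tgfa had the lowest mean in both groups, with ranges that overlapped those of its neighbour, Areg in the control and Egf in the EPS group.

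**Figure D3:**
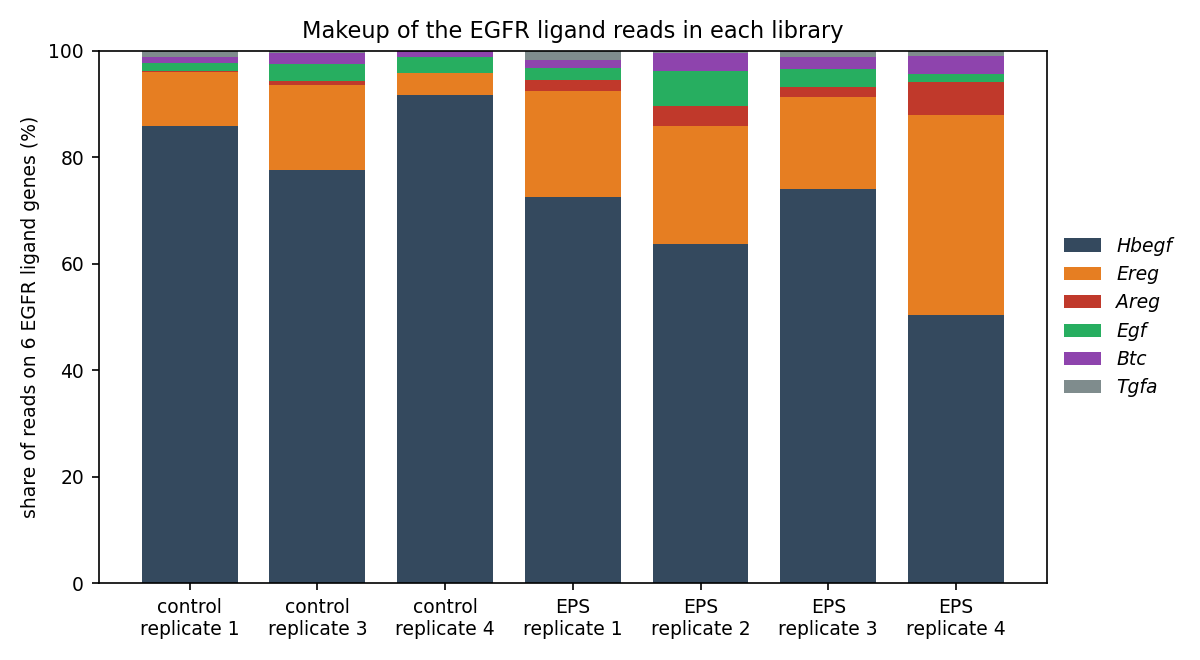
Share (%) of each of the 6 EGFR ligand genes in the reads on those genes, as a stacked bar for each of the 3 control and 4 EPS libraries. The Hbegf segment takes 77.6% to 91.7% of the control bars and 50.4% to 74.0% of the EPS bars, and the Ereg and Areg segments are taller in the EPS bars.

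The makeup of the EGFR ligand reads was compared between the groups by the share of each gene. Shares are of reads and not per length, and exon lengths ran from 1215 bases for Areg to 11275 for Egf. Within a library they therefore do not rank the genes by level. The 6 genes summed to 51.4 ± 1.43 CPM (SD, n = 3) in the control group and to 31.7 ± 6.08 CPM (SD, n = 4) in the EPS group, with ranges of 50.1 to 52.9 and 26.7 to 40.3 CPM that did not overlap. Hbegf made up 86.0% (95% Clopper-Pearson interval 83.5% to 88.2%), 77.6% (74.6% to 80.3%) and 91.7% (90.0% to 93.2%) of these reads in control replicates 1, 3 and 4. In EPS replicates 1 to 4 it made up 72.5% (69.0% to 75.8%), 63.7% (59.5% to 67.7%), 74.0% (70.4% to 77.4%) and 50.4% (46.8% to 54.0%). The shares of Hbegf did not overlap between the groups, but the intervals of control replicate 3 and EPS replicates 1 and 3 did.

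Areg made up 0% to 0.72% of the ligand reads in the control libraries and 1.79% to 6.33% in the EPS libraries. Control replicate 4, with 0 of 1171 ligand reads, allows a share of up to 0.315% by counting error alone. That library had 359 genes at 1 to 5 reads, where the others had 2670 to 3181, so its 0 may not limit the share. For Ereg the ranges were 4.10% to 16.1% in the control group and 17.4% to 37.5% in the EPS group. The shares of both were higher in each EPS library than in each control library, but for both genes the 95% interval of control replicate 3 overlapped those of EPS replicates 1 and 3. A share rises when another ligand falls, and the CPM of Ereg overlapped between the groups where its share did not. Tgfa, Btc and Egf together left the rest, and their shares overlapped between the groups.

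The spread among EPS libraries was set by EPS replicate 4 for 2 of the ligands. That library had the highest Areg and Ereg of all 7 libraries and also the lowest Hbegf share, while its Hbegf level in CPM was inside the range of the other EPS libraries. Without it, the log2 fold change of Areg was 0.59 (adjusted p = 0.239 from limma).

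The genes whose pattern across the 7 libraries was most like that of Areg, by the root mean square difference of centred log2(CPM + 1) among 12256 genes with a mean of at least 1 CPM, were E130306D19Rik (0.13), Cenpl (0.14) and Spc25 (0.15). The scale compresses the change of Areg, at 0.85 against 3.02 with DESeq2 on the recovered reads. Which genes come out as most like Areg therefore depends on the pseudocount. Cenpl and Spc25 encode a centromere and a kinetochore protein. Cenpl was at 6.88, 10.6 and 5.97 CPM in the control libraries and at 11.8, 13.1, 9.04 and 21.0 CPM in the EPS libraries. Spc25 was at 12.2, 17.6 and 11.1 CPM in the control libraries and at 25.6, 24.4, 17.0 and 51.1 CPM in the EPS libraries. Like Areg, both were lowest in control replicate 4 and highest in EPS replicate 4. E130306D19Rik, the closest of the 3, was at 1.87, 3.13 and 2.12 CPM in the control libraries and at 3.86, 4.63, 2.51 and 8.71 CPM in the EPS libraries, lowest in control replicate 1 and highest in EPS replicate 4. For Egfr the most similar genes were Amot (0.07), Maml2-2 (0.07) and Prrc1 (0.07), all of which were lowest in EPS replicate 4 or EPS replicate 2 and highest in control replicate 1.

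Markers of cycling cells were read beside Areg and Ereg. Of the 6 markers of myoblasts and cycling cells none was called, and 4 had an unadjusted P under 0.05 from limma, against 11.6% of all genes tested. The proliferation markers Mki67, Top2a and Ccnb1, named here after their values were seen, had log2 fold changes of 1.27, 0.86 and 1.38 and were highest in EPS replicate 4, as Areg and Ereg were. Their groups overlapped, and EPS replicate 2, with the second highest Areg, had the lowest Mki67 and Top2a of the EPS libraries (124 and 82.2 CPM), whereas Ccnb1 was lowest in EPS replicate 3, at 33.3 CPM, and at 46.5 CPM in EPS replicate 2 was above every control. The fourth gene, Myod1, had a difference of -0.88 (adjusted p = 0.236 from limma). It was at 99.8 to 160 CPM in the control group and at 48.0 to 93.9 CPM in the EPS group, without overlap. Groups apart on the lower side were found in 2.85% of all genes tested. Pax7 and Myf5 had differences of -0.12 and 0.20, with groups that overlapped. The 6 markers summed to 352 to 431 CPM in the control group and to 376 to 884 CPM in the EPS group, highest in EPS replicate 4. Fewer cells of a type and less RNA per cell cannot be told apart in bulk RNA, and the part of these cells in the ligand values was not tested.

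Markers of other cell types, some of which are known to make EGFR ligands, were read in the same way. The macrophage marker Emr1 (Adgre1) was at 0 in every library and Ptprc at 1 read in 2 libraries, and the 4 macrophage markers summed to 0.641 to 1.08 CPM in the control group and to 1.26 to 2.76 CPM in the EPS group. Within that list Csf1r held 2, 3 and 0 reads in the control libraries and 8, 6, 5 and 13 in the EPS libraries. The fourth marker, Cd68, held 9, 14 and 24 reads in the control libraries. In the EPS libraries Cd68 held 18, 28, 32 and 39 reads, and its groups overlapped in CPM. Of the 4 epithelial markers, Epcam was at 0 in every library, Krt5 held 1 read in 1 library, and Krt14, at 1.92 to 3.93 CPM in the control and 10.8 to 12.6 CPM in the EPS group, was called higher (log2 fold change 1.63, adjusted p = 0.0692 from limma). The fourth, Cdh1, was at 2.71 CPM in the control and 1.94 CPM in the EPS group by its means, with groups that overlapped (a difference of -0.33). The epithelial list summed to 5.12 to 7.23 CPM in the control and to 12.7 to 14.0 CPM in the EPS group. The 3 endothelial markers summed to at most 0.904 CPM in any library. The 3 fibroblast markers summed to 80.1 to 147 CPM in the control and to 55.1 to 144 CPM in the EPS group. Among them Pdgfra was higher in all 4 EPS libraries than in all controls (a difference of 0.70, adjusted p = 0.283 from limma), Dcn had a difference of -0.89 with overlapping groups, and Thy1 held at most 2 reads. Csf1r, Krt14 and Pdgfra were chosen for mention after their values were seen, and their part in the ligand values was not tested.

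**Figure D4:**
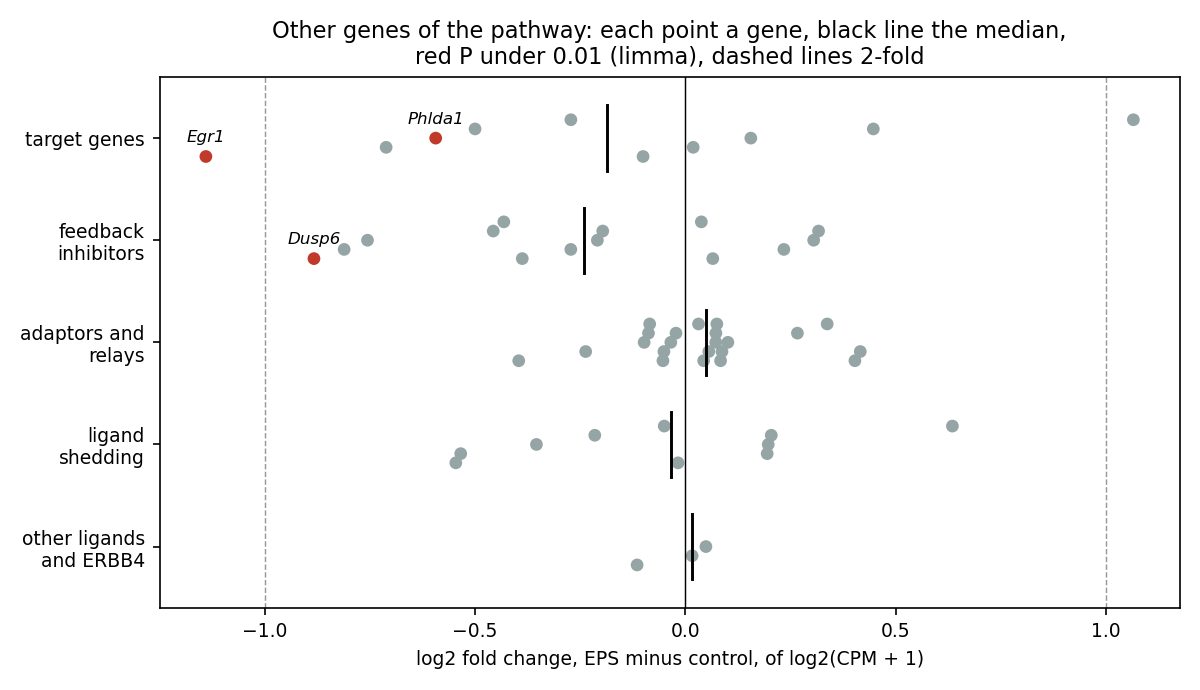
Log2 fold change of CPM + 1, EPS minus control (horizontal axis), of the 59 tested genes of the pathway outside the members, a point for each gene, in 5 lists with the median of each as a black line and 2-fold as dashed lines. The 3 red points, with P under 0.01 in limma, are Egr1, Phlda1 and Dusp6, all on the lower side, and Egr1 is the 1 of them past 2-fold.

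The pathway around the members was read from 5 lists of 61 genes in all, of which 59 were tested. Of these 28 were on the higher and 31 on the lower side, with a median log2 fold change of -0.02 beside 0.04 over all genes tested. The call at both thresholds was made for 1 of the 59, Egr1, on the lower side, beside 1.41% of all genes tested, and none had an adjusted p under 0.05 in limma, while 7 of the 59 had P under 0.05 before adjustment, near the 11.6% of all genes tested. With DESeq2 the adjusted p was under 0.05 for 3 of them (Egr1, Dusp6 and Phlda1) and with either edgeR test for 2 (Egr1 and Dusp6), and in limma for Egr1 with pseudocounts of 0.1 and 0.5, with median-of-ratios scaling and among genes with a mean of at least 1 CPM. The groups did not overlap in 6 genes, 1 higher and 5 lower, beside 10.6% of all genes tested, 7.76% higher and 2.85% lower.

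Egr1 encodes an early growth response factor that is an early target of ERK signalling. Its level was 114, 94.2 and 97.6 CPM in control replicates 1, 3 and 4, and 39.5, 44.1, 57.6 and 43.2 CPM in EPS replicates 1 to 4. All EPS libraries were below all controls, as for Hbegf. It fell by 1.14 on the log2 scale (standard error 0.17, 95% interval -1.52 to -0.76, adjusted p = 0.0542 from limma) and passed both thresholds under all 16 alternatives. Of the 10 early and delayed target genes, 4 were on the higher and 6 on the lower side, with a median of -0.19. Spp1, which encodes osteopontin and has the highest mean CPM of these, had a difference of -0.27 (adjusted p = 0.824 from limma).

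A further 2 genes, both named after their values were seen, had P under 0.01 without reaching 2-fold. P was under 0.01 in 4.17% of all genes tested, on the higher side in 2.83% and on the lower side in 1.34%. Dusp6, a phosphatase that switches off ERK, was at 25.0, 37.7 and 34.3 CPM in the control libraries and at 16.7, 18.8, 14.3 and 17.7 CPM in the EPS libraries (a change of -0.88, adjusted p = 0.127 from limma). Phlda1, a target of growth factor signalling, was at 77.9, 58.5 and 68.1 CPM in the control libraries and at 48.0, 38.1, 43.3 and 49.6 CPM in the EPS libraries (log2 fold change -0.59, adjusted p = 0.193 from limma). In neither did the groups overlap.

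Among the 4 target genes on the higher side was Fosl1, an AP-1 factor also named after its values were seen. It held 22, 11 and 8 reads in the control libraries and 68, 42, 22 and 108 reads in the EPS libraries. Control replicate 1 and EPS replicate 3 held the same number of reads, so the groups overlapped. The log2 fold change was 1.07 (adjusted p = 0.328 from limma), and 1.85 with DESeq2 (adjusted p = 0.0604), and Fosl1 passed both thresholds with DESeq2 and both edgeR tests. Dusp6 also passed them with DESeq2, edgeR's quasi-likelihood test and quantile normalization, and Spry2, an inhibitor of RAS-ERK signalling, with DESeq2 at -1.01. With 1 library left out, Fosl1 passed them without EPS replicate 3, Dusp6 without control replicate 1, and Ccnd1, which encodes cyclin D1, without EPS replicate 4. Spry2 and Ccnd1 were also named after their values were seen.

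Among the 14 feedback inhibitors of the pathway, 5 were on the higher and 9 on the lower side, with a median of -0.24 and no call in limma. Spred1, the gene of that list with the highest mean CPM, differed by 0.07 on the log2 scale (adjusted p = 0.895 from limma). Rnf41, a ubiquitin ligase that acts on ERBB3, was 1.24-fold higher with groups that did not overlap (adjusted p = 0.418 from limma), and Lrig3, a transmembrane protein of the LRIG family, was 1.37-fold lower, also without overlap (adjusted p = 0.43 from limma). Both were named after their values were seen.

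The 10 genes of ligand shedding, with the ADAM proteases and their regulators, had 4 on the higher and 6 on the lower side, a median of -0.03 and no call. Timp3, an inhibitor of ADAM17 with the highest mean CPM of that list, had an EPS minus control difference of -0.35 (adjusted p = 0.578 from limma). The 22 adaptors and relays, from Grb2 to Stat3, had 13 on the higher and 9 on the lower side, a median of 0.05, no call and a range of -0.40 to 0.42. Akt1, a kinase downstream of PI3K with the highest mean CPM of the list, had a difference of -0.08 (adjusted p = 0.869 from limma). Of all 22, Grb2, the adaptor that links receptors to RAS and named after its values were seen, had groups that did not overlap, at 98.6 ± 5.95 CPM in the EPS group (SD, n = 4) against 117 ± 12.3 CPM in the control (SD, n = 3), with an adjusted p = 0.545 from limma.

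**Figure D5:**
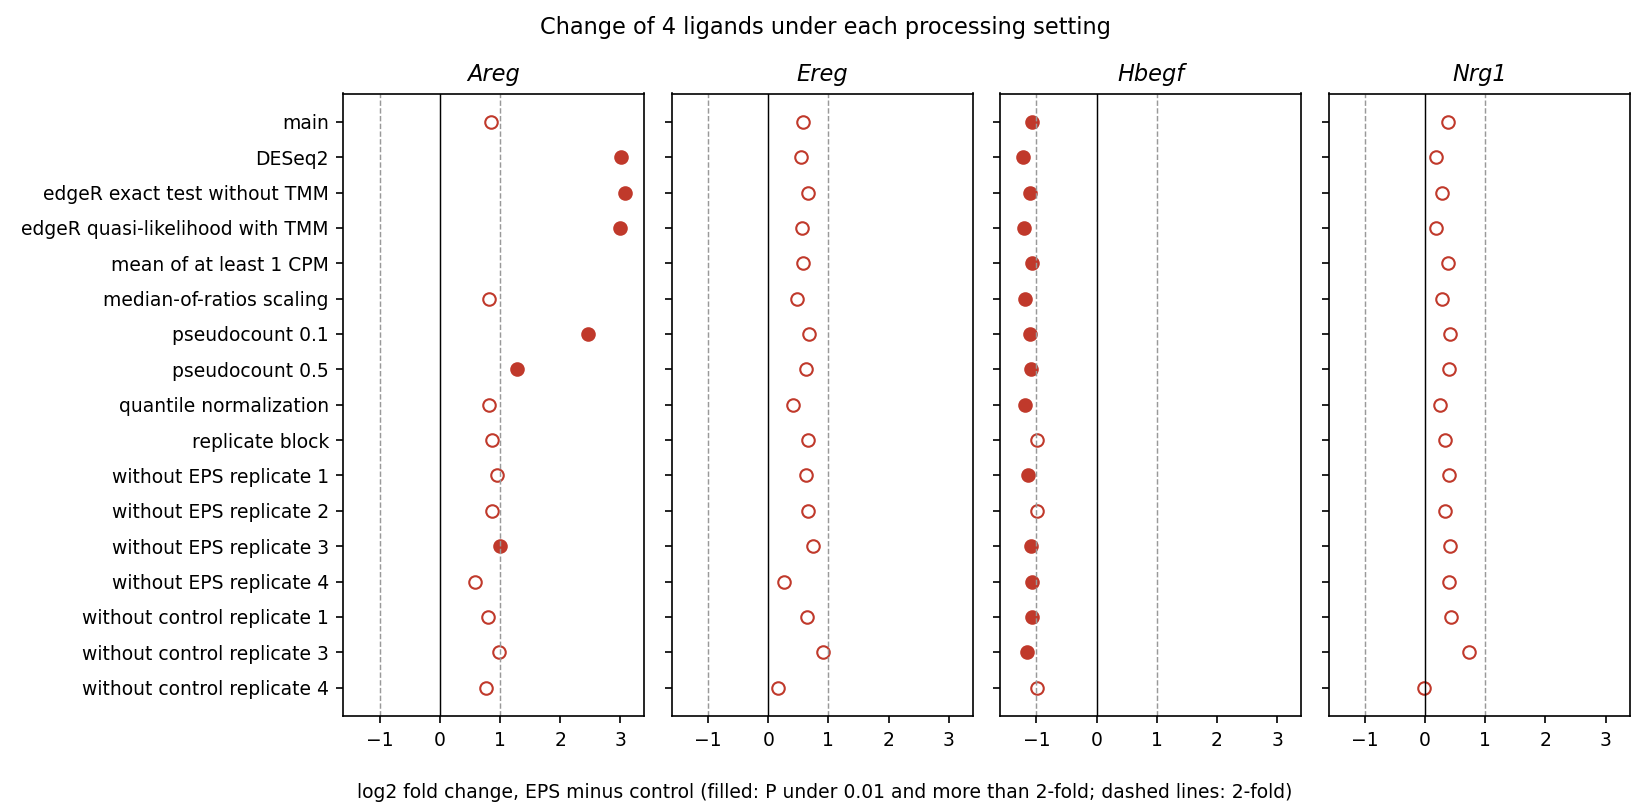
Log2 fold change, EPS minus control (horizontal axis), of Areg, Ereg, Hbegf and Nrg1 under the reported fit and each alternative (rows), filled where P was under 0.01 with more than 2-fold. Hbegf lies between -1.22 and -0.996 throughout, Areg lies between 0.81 and 3.07 under the scalings, pseudocounts and count tests and at 0.59 without EPS replicate 4, and is not in the fit of genes with a mean of at least 1 CPM, and Nrg1 reaches -0.012 without control replicate 4.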

How the data were processed

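Poly(A) RNA was made into directional libraries and sequenced as paired-end reads. Per the submitters' processing notes, reads were mapped to GRCm38 with STAR 2.5.4b. The read counter, its annotation and its strand setting are not given in the sources used here. The authors deposited CPM, in which a gene's reads are scaled to the sum over all listed genes, without log transformation. All values (100% within 0.05 of a whole number) were multiples of the smallest value in each library, and whole reads were recovered from them.

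The value log2(CPM + 1) was tested with limma 3.58.1 in R 4.3.3 (empirical Bayes with a mean-variance trend) over genes above 0 in at least 1 library, with 3 control and 4 EPS libraries and no covariate, and p-values were adjusted by Benjamini-Hochberg. Permutation tests were exact and two-sided. Alternatives were edgeR 4.0.16 and DESeq2 1.42.0 on the recovered reads, quantile and median-of-ratios scaling, only genes with a mean of at least 1 CPM, pseudocounts of 0.1 and 0.5, P under 0.001, the replicate number as a block, and each library left out. At both thresholds the count tests called 585 (DESeq2), 629 (edgeR quasi-likelihood) and 688 genes (edgeR exact test), and limma 269. On simulated reads for this comparison, limma recovered 189 of 200 genes changed by 2 on the log2 scale among 18626 and called 8 unchanged genes. The changed genes were drawn from those with a mean of at least 1 CPM. The recovery therefore does not cover weaker genes such as Areg, or changes near 2-fold.

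The members and lists were chosen with earlier results of these data known. Genes named are the members, other pathway genes past both thresholds in limma over all 7 libraries or with the highest mean of a list, and the 3 genes most like Areg and Egfr. Exceptions are stated. Hras was matched as Hras1 and Adgre1 as Emr1. Coordinates, exon lengths and coding sequences are from GENCODE M21 on GRCm38, and promoters are from RefSeq on GRCm38.p6.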

Additional observations from a re-analysis of the deposited data

Results flagged for a closer look

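In 69 groups of 4 EPS libraries, 1 for each member or pathway gene that was read, the highest or the lowest library was compared with the rest, and in 6 of them it stood apart by Dixon's 95% criterion. Chance flags about 1 in 20 such groups. Among the members this was Ereg, at 15.1 CPM in EPS replicate 4, against 4.89 to 6.33 CPM in the other EPS libraries. The other 5 were pathway genes, each with a single EPS library above the rest. Nrg2 was at 0.0465 CPM in EPS replicate 1, which is 1 read. Adam9 was at 326.6 CPM in EPS replicate 2 and Adam12 at 101.6 CPM in EPS replicate 1. Map2k1 was at 212.8 CPM in EPS replicate 2 and Stat3 at 214.4 CPM in EPS replicate 3.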

How the results depend on the processing

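The number of genes called, 269, was 585 with DESeq2, 629 with edgeR's quasi-likelihood test, 688 with the edgeR exact test, 601 with a pseudocount of 0.1 and 106 at P under 0.001, and ran from 209 to 325 with a library left out. The members called, 1 (Hbegf), were 2 (Areg and Hbegf) with DESeq2, both edgeR tests and pseudocounts of 0.1 and 0.5. With a library left out they ran from 0 (without EPS replicate 2 or control replicate 4) to 2 (without EPS replicate 3). The pathway genes called, 1 (Egr1), were 4 with DESeq2, 2 with the edgeR exact test, 3 with the quasi-likelihood test and 2 after quantile normalization, and 1 to 2 with a library left out.

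Control and EPS libraries share replicate numbers 1, 3 and 4. Across 12256 genes, the deviations of same-numbered libraries from their group means had correlations of 0.25, -0.45 and 0.07. Whether same-numbered libraries were cultured together is not stated. These correlations, without a reference value for unpaired libraries, cannot decide it. With the replicate block, which rests on 3 pairs, 161 genes, 0 members and 1 pathway gene were called, and the sign turned for Erbb3 (-0.028) and Epgn (-0.0017).

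Signs turned for members and pathway genes that were not called. Erbb3 was at -0.068 with DESeq2, -0.056 with edgeR's quasi-likelihood test, -0.062 after median-of-ratios scaling and -0.015 after quantile normalization, and Spred1 in the same fits at -0.043, -0.029, -0.046 and -0.0100. Epgn was at -0.0065 after quantile normalization. With a library left out, Erbb3 ran from -0.13 to 0.21, Spred1 from -0.041 to 0.20, Epgn from -0.14 to 0.20, Tgfa from -0.092 to 0.27, Btc from -0.041 to 0.20, Nrg1 from -0.012 to 0.73, Akt1 from -0.17 to 0.075 and Spp1 from -0.52 to 0.059. Control replicate 4 was the library whose absence turned Tgfa, Nrg1 (0.38 with all libraries) and Akt1, and control replicate 3 or EPS replicate 3 was the one for Spp1 (-0.27 with all libraries).

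Scaling shifted all genes. Among genes with a mean of at least 1 CPM, the median change between the groups was 0.10 (log2) for the deposited values, -0.0048 with median-of-ratios scaling and 0.0052 with quantile normalization, and the signs of Hbegf, Areg and Egr1 held under each. Areg had no value in the fit of genes with a mean of at least 1 CPM. At 0 to 6 reads in the control libraries, depth limits how closely its fold can be given.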
